A study of Mus musculus with 12 samples.

Results

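Transcript levels of the IL-1 family were measured in whole mouse kidneys with and without ischemia-reperfusion (IR). The set held 10 genes of the 24421 gene symbols in the count and FPKM matrices, chosen by symbol with 1 transcript each, the one with the highest total count: the cytokines *Il1a*, *Il1b*, *Il18* and *Il33*, the receptor antagonist *Il1rn*, the receptor chains *Il1r1*, *Il1rap*, *Il1r2* and *Il1rl1*, and the binding protein *Il18bp*. All 10 were found. Each of the 4 groups had 3 libraries, 1 per male C57BL/6 mouse at 6 weeks old. By their labels, WT baseline mice carried intact *Tet2* and Tet2-/- baseline mice were knockouts of this DNA demethylating enzyme. Neither of these groups had an operation. WT IR and Tet2-/- IR mice of the same 2 genotypes had 60 min of clamping of the right renal pedicle followed by removal of the left kidney, and were killed 24 h later. No sham libraries were used here, so ischemia, surgery and nephrectomy cannot be told apart in the baseline against IR comparisons. The Tet2-/- mice were bred from Tet2+/- parents, so the labelled knockout would affect every cell of the animal, blood cells included.

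Interleukin-1 alpha and beta bind the receptor chain IL1R1, which recruits the accessory chain IL1RAP and signals through MYD88 and IRAK kinases to NF-kB. The pathway is held back at several levels: the antagonist encoded by *Il1rn* occupies IL1R1 without signalling, IL1R2 binds the cytokine but lacks a signalling domain and so acts as a decoy, and the protein from *Il18bp* traps IL-18. IL-1 beta and IL-18 are made as precursors that caspase-1 cleaves in inflammasomes, while IL-33 is a nuclear alarmin sensed by the receptor ST2, the product of *Il1rl1*. In the injured kidney, IL-18 is known from tubule cells and IL-1 beta mainly from myeloid cells.

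The 250 bases before the start of the main transcript are shown for *Il1b*, *Il1rn* and *Il1r2*, the 3 members that rose after IR in the libraries labelled Tet2-/-. They were read from mm9 at chr2:129196876-129197125 (minus strand) for *Il1b*, chr2:24192130-24192379 (plus strand) for *Il1rn* and chr1:40141363-40141612 (plus strand) for *Il1r2*, and each is written 5′ to 3′ towards its gene with motif matches in capitals.
Il1b: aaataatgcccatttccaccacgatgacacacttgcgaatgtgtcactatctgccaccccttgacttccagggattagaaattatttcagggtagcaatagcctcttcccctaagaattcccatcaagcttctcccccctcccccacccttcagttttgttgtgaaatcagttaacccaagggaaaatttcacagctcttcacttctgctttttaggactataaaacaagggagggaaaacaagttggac
Il1rn: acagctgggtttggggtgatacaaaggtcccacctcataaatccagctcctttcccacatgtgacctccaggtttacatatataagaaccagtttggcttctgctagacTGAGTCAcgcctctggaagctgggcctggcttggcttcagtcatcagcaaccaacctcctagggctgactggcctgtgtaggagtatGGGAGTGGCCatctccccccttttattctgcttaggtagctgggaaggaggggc
Il1r2: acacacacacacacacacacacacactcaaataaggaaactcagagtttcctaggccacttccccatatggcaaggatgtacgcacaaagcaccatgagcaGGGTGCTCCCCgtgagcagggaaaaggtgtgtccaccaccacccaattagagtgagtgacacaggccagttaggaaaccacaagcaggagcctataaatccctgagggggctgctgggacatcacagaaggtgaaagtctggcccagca
Letters were searched on both strands for NF-kB (GGG, any 5 bases, then CC), AP-1 (TGANTCA), PU.1 (GAGGAAG) and C/EBP (TTGCNNAA). *Il1r2* held a pair of NF-kB matches that overlap each other, from 149 to 139 bases before the start. *Il1rn* held an AP-1 match from 141 to 135 bases and an NF-kB match from 54 to 45 bases before the start. *Il1b* held no match to any of the 4 in this window. Over the 10 main windows, NF-kB letters occurred in 5 (50.5% of 24351 windows of the same length before all genes), AP-1 in 2 (6.17%), PU.1 in 2 (10.7%) and C/EBP in 2 (8.78%). The windows of *Il1b* and *Il1rn* were identical to the promoter sequences of RefSeq on GRCm38.p6, and that of *Il1r2* was not found there in the same form.

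Some facts of the whole series bear on these values. The deposited counts summed over 1 transcript per gene ran from 51007366 to 107969888 per library, and replicates were separate mice. *Tet2* itself went against the label at baseline, with 9.25 to 16.6 FPKM in every Tet2-/- library above the 6.25 to 9.15 FPKM of WT libraries (log2 fold change 0.76, adjusted p = 0.321 with edgeR), and went with the label after IR, where every Tet2-/- library (1.76 to 3.20 FPKM) lay below every WT library (3.86 to 9.34 FPKM) but the adjusted p was missed (log2 fold change −1.28, adjusted p = 0.0690 with edgeR), so the groups are named by their labels. Proximal tubule markers, which define most of the kidney cortex, were high in every library, with 10 marker genes summing to 687 to 3083 FPKM. The 10 adipocyte markers summed to 147 and 296 FPKM in WT baseline replicates 2 and 3 and to 610 FPKM in Tet2-/- IR replicate 3, against 17.0 to 116 FPKM in the other 9 libraries. In RNA from whole tissue, fewer cells of a type and less RNA per cell cannot be told apart. Reads from exons shared by several transcripts of a gene can count towards each, and strand-specific counting was not given in the sources used here, so the 222 exon bases that *Il1a* shares with the antisense gene Gm14023, the 25 that *Il1b* shares with Gm14047 and the 353 that *Il1rap* shares with RP24-345H5.2 cannot be separated.

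In WT baseline kidneys *Il18bp* was the most abundant member at 2.86 ± 0.105 FPKM (SD, n = 3), a unit scaled to transcript length and library size. It was followed by *Il18* (1.99 ± 0.341), *Il1r1* (1.67 ± 0.5), *Il33* (1.27 ± 0.541) and *Il1rap* (1.09 ± 0.206), and each of these 4 overlapped its neighbour in the order. The IL-1 ligands lay lower, at 0.348 ± 0.231 FPKM for *Il1b* and 0.230 ± 0.0131 for *Il1a*. The decoy *Il1r2* (0.0863 ± 0.0196), the antagonist *Il1rn* (0.0717 ± 0.0346) and *Il1rl1* (0.0367 ± 0.0204) were the lowest, with 9 to 27.5 counts per library. In Tet2-/- baseline and WT IR kidneys *Il18bp* again stood first, apart from its neighbour. In Tet2-/- IR kidneys *Il1r2* had rank 2 and *Il1b* rank 3 of the 10 members, against ranks 8 and 6 in WT baseline kidneys, at 3.20 ± 0.197 and 2.99 ± 1.60 FPKM (SD, n = 3), and the upper 8 members each overlapped their neighbour. The summed FPKM of the 10 members ran from 16.3 to 28.9 in Tet2-/- IR libraries and from 7.44 to 10.7 in the other 9.

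**Figure D1:**
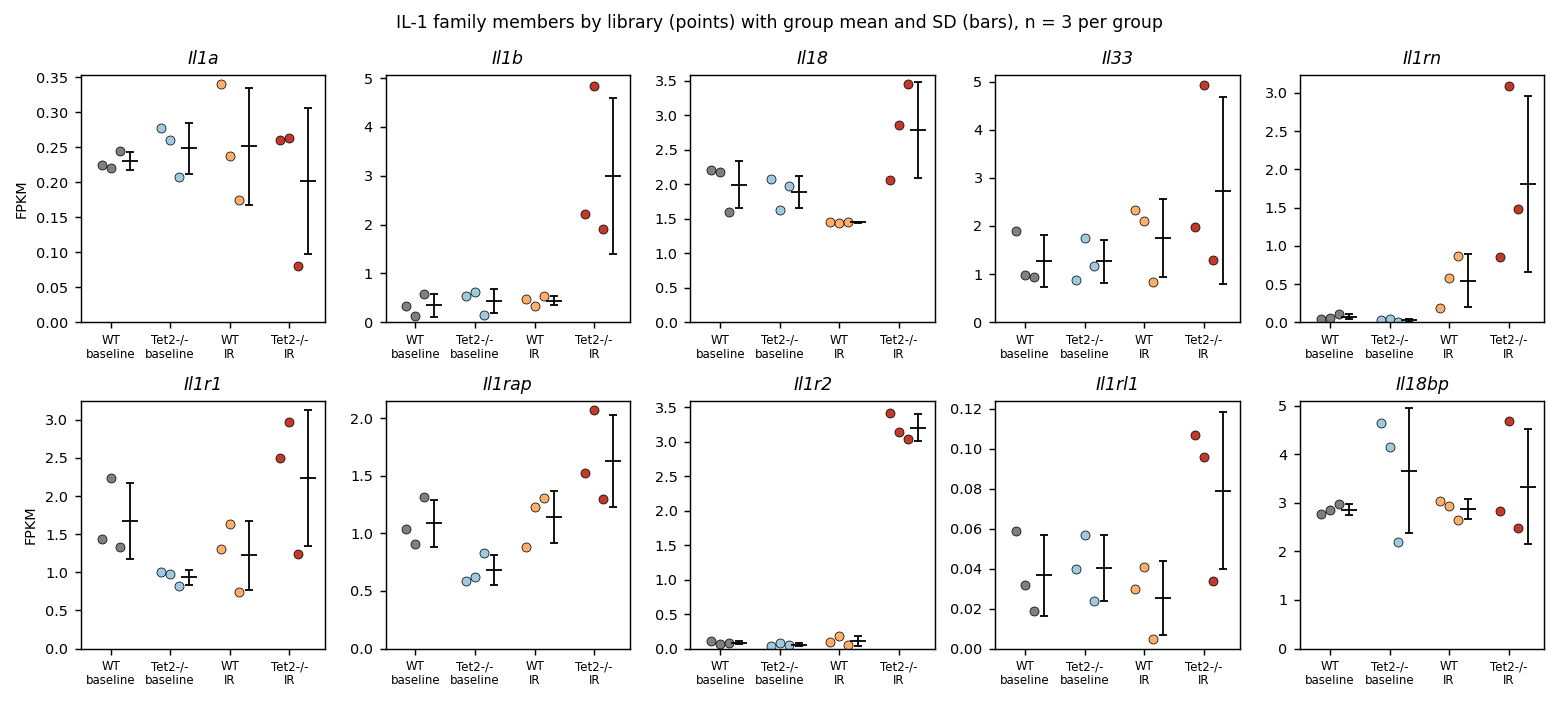
FPKM of each IL-1 family member (y axis, linear, starting at 0) in the 12 libraries by group (x axis), with points for libraries and bars for the mean and SD of 3. The 3 Tet2-/- IR points for *Il1r2* sit between 3.04 and 3.42 FPKM, while the other 9 libraries reach at most 0.182.

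The first comparison asked whether the family differed between genotypes without injury. No member passed the test at baseline: edgeR called 0 of 9 tested higher (0.0124% of 16086 genes were) and 0 lower (0%). Counting unadjusted p values under 0.05 instead, 2 members were lower and 0 higher, where 1319 of the 16086 genes were lower and 572 higher, and DESeq2 and limma also called 0 members. Every Tet2-/- library lay below every WT library for 3 members (16.5% of all genes tested did so) and above for none (3.06%). One was *Il1r1*, the signalling receptor, with 1.44, 2.24 and 1.33 FPKM in WT libraries and 1.01, 0.977 and 0.826 FPKM in Tet2-/- libraries. Its log2 fold change was −0.75 (SE 0.23, adjusted p = 0.313 with edgeR). The accessory chain *Il1rap* had 1.04, 0.907 and 1.31 FPKM in WT and 0.585, 0.623 and 0.827 FPKM in Tet2-/- libraries, a log2 fold change of −0.59 (SE 0.23, adjusted p = 0.398 with edgeR). These 2 chains of 1 receptor complex had the unadjusted p values under 0.05 (0.0132 and 0.0380 with edgeR). The last of these was *Il1rn*, where the Tet2-/- libraries had 0.033, 0.038 and 0.004 FPKM and WT libraries 0.046, 0.058 and 0.111, with 1 to 25.5 counts behind each value (log2 fold change −1.40, SE 0.67, adjusted p = 0.462 with edgeR). *Il1r2* had too few counts for the test, at 0.068 to 0.107 FPKM in WT and 0.030 to 0.080 FPKM in Tet2-/- libraries, and these ranges overlapped. The ligands *Il1a*, *Il1b*, *Il18* and *Il33* and the binding protein *Il18bp* had log2 fold changes between 0.01 and 0.44, with overlapping groups. The median log2 fold change of the 9 members was 0.09, against 0.00402 over all genes.

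The second comparison asked the same of kidneys after IR. *Il1b* and *Il1r2* were higher in the libraries labelled Tet2-/-, which makes 2 of 10 members called higher (2.3% of 16186 genes were) and 0 lower (3.85%). The cytokine *Il1b* (NM_008361, chr2:129190314-129196875) had 0.468, 0.340 and 0.528 FPKM in WT IR replicates 1, 2 and 3. It had 2.22, 4.84 and 1.92 FPKM in Tet2-/- IR replicates 1, 2 and 3. Replicate 2 was the highest of these, and the lowest was still above each WT library. *Il1b* was thus 6.02-fold higher (log2 fold change 2.59, SE 0.43, adjusted p = 0.0194 with edgeR). Without WT IR replicate 1 the value was 2.60 and the call was lost (adjusted p = 0.0678 with edgeR), while over all alternatives the adjusted p ran from 1.76e-07 to 0.0678.

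The decoy receptor *Il1r2* (NM_010555, chr1:40141613-40182070) had the largest difference of the 10 members. Its counts were 9, 21 and 5 in WT IR libraries and 505.5, 539.5 and 382.5 in Tet2-/- IR libraries, or 0.097, 0.182 and 0.048 against 3.42, 3.15 and 3.04 FPKM. The Tet2-/- libraries were close to each other, with an SD of 0.197 FPKM around 3.20. *Il1r2* was 27.6-fold higher (log2 fold change 4.78, SE 0.47, adjusted p = 0.00989 with edgeR) and was called in all alternatives tried, with an adjusted p of at most 0.0399. The gene Gm16894, on the opposite strand across the start of *Il1r2*, had a mean of 0.0080 and 0.0173 FPKM in these groups.

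*Il18* also lay above WT in every Tet2-/- IR library, and with *Il1b* and *Il1r2* it made 3 members with separate groups (22% of all genes lay above in this way, 14.6% below). This cytokine of tubule and myeloid cells had 1.45, 1.44 and 1.45 FPKM in WT and 2.06, 2.86 and 3.45 FPKM in Tet2-/- libraries. It did not pass the test (log2 fold change 0.86, SE 0.32, adjusted p = 0.130 with edgeR). For the antagonist *Il1rn*, 0.182, 0.578 and 0.868 FPKM in WT IR libraries stood against 0.855, 3.09 and 1.48 FPKM in Tet2-/- IR libraries. The lowest Tet2-/- library fell just below the highest WT library, and the test gave a log2 fold change of 1.57 (SE 0.67, adjusted p = 0.173 with edgeR). *Il1r1* (0.77, adjusted p = 0.20), *Il1rap* (0.39, adjusted p = 0.356) and *Il1rl1* (1.54, adjusted p = 0.207) had positive log2 fold changes in edgeR with overlapping groups. *Il33* had 1.98, 4.94 and 1.29 FPKM in Tet2-/- and 2.32, 2.10 and 0.830 FPKM in WT libraries, so that replicate 2 alone lay outside the WT range (log2 fold change 0.53, SE 0.52, adjusted p = 0.538 with edgeR). *Il18bp* and *Il1a* had log2 fold changes of 0.10 and −0.41. The median over the 10 members was 0.81, against 0.0407 over all genes. With 3 libraries against 3, an exact two-sided permutation test of a single value cannot go below p = 0.1.

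The effect of IR in WT kidneys was examined next. No member was called, 0 higher (1.46% of 16015 genes were) and 0 lower (0.887%) with edgeR, and 1 member had an unadjusted p under 0.05, with a higher level after IR, as had 1825 of the genes. That was *Il1rn*, the receptor antagonist, at 0.046, 0.058 and 0.111 FPKM in baseline replicates 1, 2 and 3 and 0.182, 0.578 and 0.868 FPKM in IR replicates 1, 2 and 3. Each IR library lay above each baseline library, as 18.9% of all genes did. The log2 fold change was 2.86 (SE 0.68, adjusted p = 0.0752 with edgeR). The replicate number as a block gave 2.74 and an adjusted p of 0.0133 with edgeR. *Il1rn* was also called by DESeq2 (2.88, adjusted p = 0.00109), by edgeR with all 12 libraries in a single fit (2.86, adjusted p = 0.0392) and without WT IR replicate 1, its lowest IR library (3.29, adjusted p = 0.0267 with edgeR). *Il18* had 2.20, 2.18 and 1.60 FPKM at baseline and between 1.44 and 1.45 FPKM after IR, without overlap (10.4% of genes lay below). The log2 fold change of *Il18*, −0.52 (SE 0.25, adjusted p = 0.271 with edgeR), missed the test. *Il1b* (0.31), *Il1a* (0.04), *Il33* (0.37), *Il1r2* (0.31), *Il1rap* (0.01), *Il18bp* (−0.06), *Il1r1* (−0.52) and *Il1rl1* (−0.64) had the log2 fold changes given, and their groups overlapped. The median over the 10 members was 0.03, against −0.0259 over all genes.

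In the libraries labelled Tet2-/-, IR was accompanied by more of the ligand *Il1b*, of the antagonist and of the decoy, while the ligand *Il1a* was not called. *Il1b*, *Il1rn* and *Il1r2* rose, 3 of 10 members called higher and 0 lower, where 12.7% of 16359 genes were called higher and 11.6% lower. TMM scaling gave 2078 genes higher and 1896 lower. Scaling by library size gave 2860 and 1397, moved the median over all genes from 0.0435 to 0.274, and called 5 of the 10 members. In the sentences that follow, baseline and IR replicates are given in the order 1, 2 and 3. *Il1b* had 0.538, 0.612 and 0.147 FPKM at baseline and 2.22, 4.84 and 1.92 FPKM after IR, a log2 fold change of 2.51 (SE 0.57, adjusted p = 0.0104 with edgeR). *Il1rn* (NM_031167, chr2:24192380-24207011) went from 6, 14 and 1 counts to 233, 976 and 344 counts, with means of 0.0250 ± 0.0184 and 1.81 ± 1.15 FPKM (SD, n = 3). The log2 fold change was 5.83 (SE 0.73, adjusted p = 0.000864 with edgeR), the largest of the 10 members in this comparison. *Il1r2* went from 3, 16 and 7 counts to 505.5, 539.5 and 382.5 counts, a log2 fold change of 5.51 (SE 0.39, adjusted p = 0.000130 with edgeR).

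The 2 chains of the signalling receptor passed the adjusted p but stayed just under the fold limit of 1 on the log2 scale. *Il1r1* (NM_001123382, chr1:40323431-40373022) went from 1.01, 0.977 and 0.826 FPKM to 2.50, 2.97 and 1.24 FPKM, a log2 fold change of 0.98 (SE 0.29, adjusted p = 0.0280 with edgeR). *Il1rap* (NM_008364, chr16:26581791-26717834) went from 0.585, 0.623 and 0.827 FPKM to 1.52, 2.07 and 1.30 FPKM, a log2 fold change of 0.99 (SE 0.24, adjusted p = 0.0140 with edgeR). Replicate 3 was the lowest IR library for both, and without it both were called (1.23 and 1.08). For 5 members, *Il1b*, *Il1rn*, *Il1r1*, *Il1r2* and *Il1rap*, each IR library lay above each baseline library (40.5% of genes did), and for none below (17.9%). *Il18* (0.31, adjusted p = 0.426), *Il33* (0.81, adjusted p = 0.204), *Il1rl1* (0.66, adjusted p = 0.334), *Il18bp* (−0.41, adjusted p = 0.347) and *Il1a* (−0.57, adjusted p = 0.345) did not pass in edgeR. The median over the 10 members was 0.89.

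**Figure D2:**
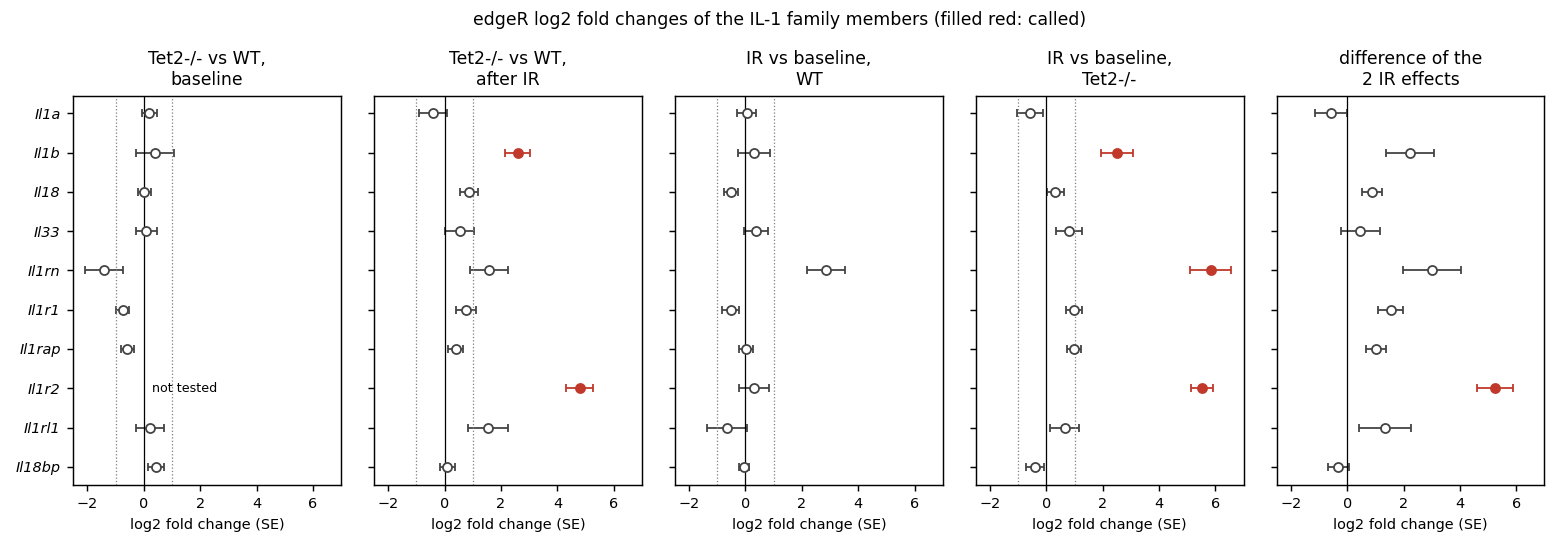
edgeR log2 fold change (x axis, bars are standard errors) of each member (rows) in the 4 comparisons and in the difference of the IR effects between genotypes, with dotted lines at the fold limit of 1 and −1 and filled red points for called members. *Il1r2* is called in 3 panels, at 4.78, 5.51 and 5.25, and was not tested at baseline.

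Whether the IR effect itself differed between genotypes was tested with all 12 libraries. *Il1r2* was called, 1 of 10 members higher (3.79% of 16741 genes) and 0 lower (5.39%). Its IR effect was 5.25 log2 units greater in the libraries labelled Tet2-/- (SE 0.64, adjusted p = 0.00381 with edgeR). Another 5 members had unadjusted p values under 0.05, all with a greater IR effect in Tet2-/- libraries, as had 2449 of the 16741 genes, with 2102 in the other direction. These were *Il1r1* (1.54, SE 0.45, adjusted p = 0.0532), *Il1rn* (3.0, SE 1.03, adjusted p = 0.0886) and *Il1rap* (1.02, SE 0.35, adjusted p = 0.0880), together with *Il1b* (2.23, SE 0.86, adjusted p = 0.122) and *Il18* (0.87, SE 0.36, adjusted p = 0.147), all with edgeR. *Il1r1* was called with the replicate number as a block (1.5, adjusted p = 0.0144 with edgeR), which made 2 members. It was also called without WT IR replicate 2 (1.77, adjusted p = 0.0342 with edgeR) and without Tet2-/- IR replicate 3 (1.80, adjusted p = 0.0209 with edgeR). The median over all genes in this fit was 0.103, and it was 0.241 with library sizes alone, where 1129 genes were higher and 700 lower instead of 634 and 902. *Il1b* and *Il1rn* missed this test, although each was called within the Tet2-/- libraries, and their calls depended on the tool. DESeq2 called *Il1rn* (2.98, adjusted p = 0.0217), *Il1r1* (1.48, adjusted p = 0.0122) and *Il1rap* (0.96, adjusted p = 0.0397) beside *Il1r2*, and limma on log2(FPKM + 1) called *Il1b* (1.31, adjusted p = 0.0385). Over all alternatives the adjusted p ran from 0.0385 to 0.270 for *Il1b* and from 0.0217 to 0.189 for *Il1rn*. The genotype and IR comparisons share libraries, so their values are given side by side and not counted as separate evidence.

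Ratios within a library compare an inhibitor with its partner in the same RNA. The decoy *Il1r2* was at 0.0303 to 0.0744 of the FPKM of *Il1r1* in WT baseline libraries, 0.0299 to 0.0819 in Tet2-/- baseline libraries and 0.0651 to 0.112 in WT IR libraries. In Tet2-/- IR libraries the ratio was 1.06 to 2.46, so that decoy transcripts exceeded those of the signalling receptor in all 3. The ratio of the antagonist *Il1rn* to *Il1b* was 0.135 to 0.479 in WT and 0.0272 to 0.0621 in Tet2-/- baseline libraries, which did not overlap. These baseline ratios rest on 1 to 25.5 counts of *Il1rn* per library, and neither gene was called between genotypes at baseline. After IR the ratio was 0.389 to 1.70 in WT and 0.385 to 0.772 in Tet2-/- libraries, which overlapped. *Il18* against its trap *Il18bp* was at 0.478 to 0.547 in WT IR and 0.611 to 1.39 in Tet2-/- IR libraries, without overlap, while at baseline the genotypes overlapped (0.538 to 0.797 and 0.393 to 0.900).

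**Figure D3:**
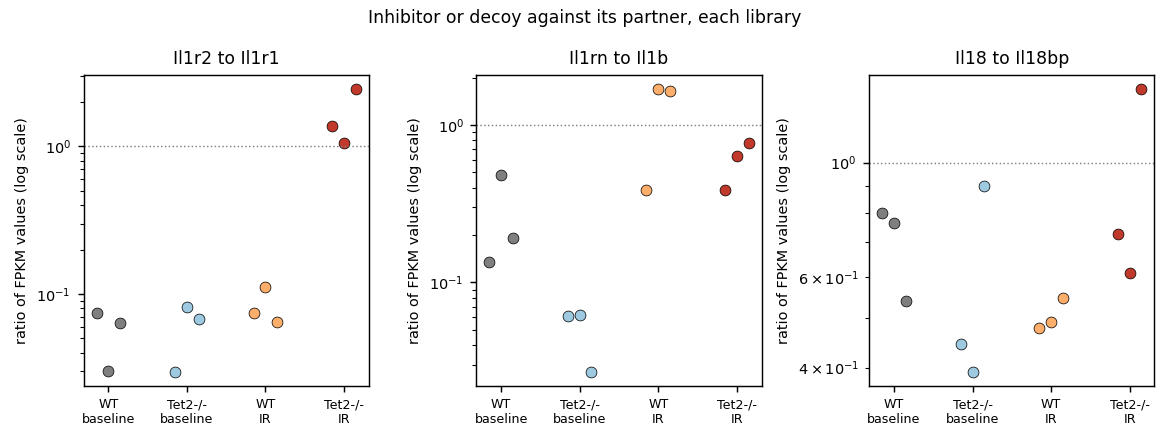
Ratio of the FPKM values of 2 genes in each library (y axis, log scale, dotted line at 1) by group (x axis). The Tet2-/- IR points for *Il1r2* to *Il1r1* lie between 1.06 and 2.46 and those of the other 9 libraries at or below 0.112.

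Of the members, 5 had more than 1 transcript in the files, 19 in all for the 10 genes. *Il1rl1* is known to encode a membrane receptor and, from another last exon, a soluble form that captures IL-33. The transcript for the membrane form (NM_001025602, matched to a protein of 567 residues) and that for the soluble form (NM_010743, 337 residues) share 1188 exon bases, and 4114 and 1473 belong to one of them alone. The counts were low. In WT baseline libraries the membrane transcript had 27.5, 17 and 9.5 counts and the soluble one 3.5, 2 and 4. In Tet2-/- IR libraries the membrane transcript had 62.5, 65 and 17 counts and the soluble one 63.5, 60 and 8. Soluble counts were thus between 0.471 and 1.02 of the membrane counts in Tet2-/- IR libraries, above the 0.0833 to 0.132 of the Tet2-/- baseline libraries. In WT IR libraries the soluble transcript had 6, 27.5 and 0 counts against 11, 19 and 2. Summed over 3 libraries, the ratio was 0.176 in WT baseline, 0.122 in Tet2-/- baseline, 1.05 in WT IR and 0.910 in Tet2-/- IR kidneys. The soluble transcript was below edgeR's filter in the baseline against IR comparisons and had a log2 fold change of 1.36 between genotypes after IR (SE 1.10, adjusted p = 0.454 with edgeR and each transcript as its own feature). With all transcripts of a gene summed, *Il1rl1* was called higher after IR in the libraries labelled Tet2-/- (1.84, adjusted p = 0.0467 with edgeR), unlike the membrane transcript alone. That sum also holds NM_001294171, whose counts were within 0.5 of those of the soluble transcript in every library, so it weights the soluble reads more than the membrane reads.

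*Il1rap* had 4 transcripts, and its forms were not tested against those of *Il1rl1*. The soluble form (NM_134103, 360 residues) was at 0.314 of the counts of the membrane form (570 residues) in WT baseline, 0.315 in Tet2-/- baseline, 0.281 in WT IR and 0.240 in Tet2-/- IR libraries. Its own log2 fold change with IR in Tet2-/- libraries was 0.59 (SE 0.33, adjusted p = 0.180 with edgeR), against 0.98 (SE 0.24, adjusted p = 0.0125) for the membrane form in the same fit. The transcripts of the longest form (NM_001159317 and NM_001159318, matched to a protein of 685 residues) had 29, 68 and 42.5 counts at baseline and 176.5, 324 and 96.5 counts after IR for NM_001159317. This transcript rose (log2 fold change 1.69, SE 0.36, adjusted p = 0.00781 with edgeR). Whether the forms differed from each other in their change was not tested. In each comparison the transcripts of *Il1rn*, *Il1r1* and *Il33* were on the same side of the threshold as the main transcript of their gene.

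**Figure D4:**
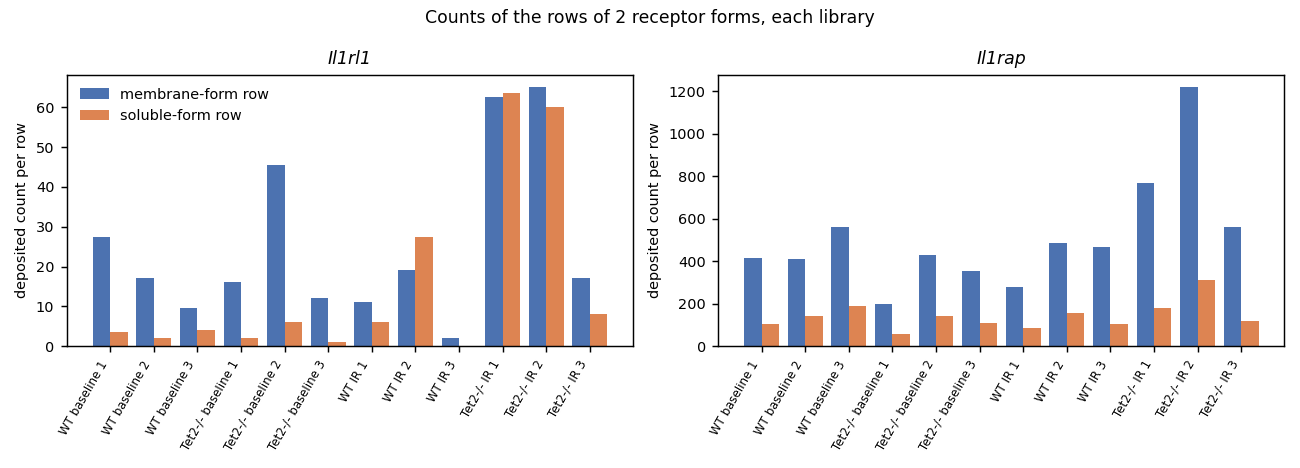
Deposited counts (y axis, starting at 0) of the membrane-form and soluble-form transcripts of *Il1rl1* and *Il1rap* in each library (x axis). For *Il1rl1* the bars of both forms are about as high in Tet2-/- IR replicates 1 and 2, at 60 to 65 counts, while at baseline the soluble bars reach at most 6 counts.

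A cluster of 6 receptor genes of the family, without *Il1rap* on chromosome 16, lies on chromosome 1 in the order *Il1r2*, *Il1r1*, *Il1rl2*, *Il1rl1*, *Il18r1* and *Il18rap*, from 40141613 to 40608550 on mm9. Between WT IR and Tet2-/- IR libraries the mean FPKM of *Il1r2* went from 0.109 to 3.20, while its neighbour *Il1r1* went from 1.22 to 2.23. At the other end *Il18rap*, the accessory chain of the IL-18 receptor, had 0.0863 ± 0.0501 and 0.422 ± 0.158 FPKM (SD, n = 3) and was higher in Tet2-/- libraries by 2.20 on the log2 scale (SE 0.49, adjusted p = 0.0382 with edgeR). The next gene, *Slc9a4*, an ion exchanger that is no cytokine receptor, had 0.860 and 0.988 FPKM.

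Among 11 other ligands and receptors of the family, 2 of 7 tested were higher after IR in the libraries labelled Tet2-/- (2.3% of all genes were) and 0 lower (3.85%). Beside *Il18rap* this was *Il36g*, an epithelial cytokine of the family, with 0.053, 0.288 and 0.190 FPKM in WT IR and 1.46, 3.41 and 1.78 FPKM in Tet2-/- IR libraries (log2 fold change 3.52, SE 0.63, adjusted p = 0.0221 with edgeR). At baseline *Il36g* had at most 2 counts in any library, and after IR it was at least 8.94-fold higher in WT and at least 116-fold higher in Tet2-/- kidneys, with 3 counts per library as the floor. *Il36a* was at least 22.8-fold higher after IR in WT and at least 35.4-fold higher in Tet2-/- kidneys by the same floor. It was the 1 gene of 6 tested that was called in WT kidneys (1.46% of all genes were called higher there). In Tet2-/- kidneys 5 of 7 rose after IR (12.7% of all genes did): *Il36a*, *Il36g*, *Il18rap*, the IL-36 receptor *Il1rl2* (1.77, adjusted p = 0.0392 with edgeR) and *Il18r1* (1.16, adjusted p = 0.0494 with edgeR). *Sigirr*, an inhibitory receptor of the family, was the most abundant of these genes, at 31.7 to 48.7 FPKM in the other groups and 25.3 to 29.3 FPKM in Tet2-/- IR libraries. Its IR effect differed between genotypes (−0.85, SE 0.17, adjusted p = 0.0150 with edgeR).

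Of 16 genes for inflammasomes and processing of the cytokines, 13 were tested after IR, and 0 were higher (2.3% of all genes were) and 1 lower (3.85%) between genotypes. *Casp1*, which cleaves pro-IL-1 beta and pro-IL-18, had 0.210 ± 0.142 FPKM in WT IR and 0.396 ± 0.206 FPKM in Tet2-/- IR libraries (SD, n = 3) and was not called in any comparison. The gene that was lower is *Nlrp6*, an inflammasome sensor of epithelia, with 42.6, 13.8 and 24.6 FPKM in WT IR and 2.65, 4.43 and 6.29 FPKM in Tet2-/- IR libraries (log2 fold change −2.69, SE 0.49, adjusted p = 0.0234 with edgeR). In Tet2-/- kidneys it fell after IR by 3.91 on the log2 scale (adjusted p = 0.000249 with edgeR), and *Capn2*, *Mefv* and *Prtn3* rose, 3 of 13 higher and 1 lower against 12.7% and 11.6% of all genes. *Mefv* was mainly in replicate 2, with 0.093, 0.766 and 0.077 FPKM in Tet2-/- IR replicates 1, 2 and 3. *Prtn3* had 2.5, 4.5 and 3 counts in the Tet2-/- baseline libraries. *Capn2* encodes a calpain subunit, and calpains process pro-IL-1 alpha; its log2 fold change was 1.43 (SE 0.15, adjusted p = 0.000503 with edgeR).

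Of 25 genes that carry the IL-1 receptor signal, all were tested. After IR, 1 was higher between genotypes (2.3% of all genes were) and 0 lower (3.85%): *Irak3*, a kinase-like inhibitor of the pathway, at 0.343, 0.435 and 0.144 FPKM in WT IR and 1.01, 1.01 and 0.876 FPKM in Tet2-/- IR libraries (log2 fold change 1.58, SE 0.39, adjusted p = 0.0499 with edgeR, at the limit). In Tet2-/- kidneys *Irak3* (1.59) and *Ikbkg* (1.14) rose and *Ecsit* (−1.12) fell after IR. In WT kidneys 0 of 25 were called, where 1.46% of all genes were called higher and 0.887% lower. The 2 higher and 1 lower of 25 in Tet2-/- kidneys stand against 12.7% and 11.6% of all genes. The adaptor *Myd88* had 9.38 to 12.6 FPKM in WT IR and 16.0 to 17.8 FPKM in Tet2-/- IR libraries. Its log2 fold change of 0.59 (SE 0.13, adjusted p = 0.0376 with edgeR) passed the adjusted p but not the fold limit.

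A list of 24 genes known to respond to IL-1 had 4 of 23 tested higher between genotypes after IR (2.3% of all genes) and 0 lower (3.85%). These were *Saa3*, an acute phase protein (log2 fold change 5.22, adjusted p = 0.00749), *Il6* (4.56, adjusted p = 0.0228), the protease *Mmp9* (4.10, adjusted p = 0.0218) and the adhesion molecule *Selp* (2.67, adjusted p = 0.0475), all with edgeR. After IR, 2 of 16 rose in WT kidneys (1.46% of all genes), *Lcn2* (6.17) and *Icam1* (1.35). In Tet2-/- kidneys 18 of 23 rose and 1 fell, where 12.7% of all genes were called higher and 11.6% lower. The 16 and the 23 are not the same set. Genes near 0 in the other groups passed edgeR's filter on low counts only through the Tet2-/- IR libraries, so the 2 counts cannot be set against each other. Many genes of the list also respond to other cytokines. The median log2 fold change of the list between genotypes after IR was 1.48, against 0.0407 over all genes.

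Lists of markers of other cells were set beside the members, and some of them differed between genotypes after IR. Their counts of called genes between genotypes after IR are to be read against 2.3% of all genes called higher and 3.85% lower. Between WT IR and Tet2-/- IR libraries, 7 of 9 tested neutrophil markers were higher. The 12 summed to 4.14 to 9.52 FPKM in WT IR and 75.6 to 134 FPKM in Tet2-/- IR libraries, against 0.679 to 3.19 FPKM at baseline. Only 4 of the 12 passed edgeR's filter on low counts for IR in WT kidneys. Some of the 9 thus passed only through the Tet2-/- IR libraries, where they were high, so 7 of 9 is not independent of that filter. *S100a8*, a neutrophil calprotectin chain, had a log2 fold change of 3.93 (adjusted p = 0.00890 with edgeR), while *Elane* and *Mpo* were listed at 0 in all 3 WT IR libraries. Macrophage markers summed to 33.6 to 66.0 FPKM in WT IR and 69.5 to 173 FPKM in Tet2-/- IR libraries, with 3 of 12 called higher, *Cd14*, *Itgam* and *Chil3*. Much of this rise lay in *Cd14* (means of 8.63 and 38.3 FPKM) and *Chil3* (0.293 and 17.3 FPKM), while 11 of the 12 had positive log2 fold changes and 1 a negative one. The macrophage receptor *Csf1r* had means of 8.81 FPKM in WT IR and 4.53 FPKM in Tet2-/- IR libraries, against 17.2 to 30.9 FPKM over the 6 baseline libraries, and fell after IR in Tet2-/- kidneys by 2.69 on the log2 scale (adjusted p = 0.00124 with edgeR). Tubular injury markers summed to 1708 to 7947 and 12094 to 26155 FPKM, with 1 of 10 called higher, and proximal tubule markers to 1693 to 2226 and 687 to 956 FPKM, with 4 of 10 called lower. The 10 mast cell and basophil markers summed to 9.23 to 25.2 FPKM in WT IR and 16.4 to 41.1 FPKM in Tet2-/- IR libraries, against 3.46 to 7.73 FPKM at baseline, and 0 of 4 tested were called between genotypes after IR. Within this list the tryptase *Tpsab1* rose after IR in WT (log2 fold change 5.88, adjusted p = 0.0161 with edgeR) and in Tet2-/- kidneys (9.82, adjusted p = 0.000553 with edgeR). Its means of 11.9 FPKM in WT IR and 19.0 FPKM in Tet2-/- IR libraries were the largest part of the mean sums. *Kit* had means of 1.97 FPKM in WT baseline and 1.66 FPKM in WT IR libraries. *Cpa3*, *Mcpt4* and *Mcpt8* were at 0 in all WT IR libraries, and *Fcer1a*, a chain of the IgE receptor, was at 0 in every IR library. Lymphocyte markers summed to 0.690 to 3.0 FPKM over the 6 IR libraries with 0 of 7 called, and endothelial, fibroblast and adipocyte markers had 0 called. Distal nephron markers had 1 of 12 called lower. Most of the injury sum was *Spp1*, the gene of osteopontin, with means of 4093 FPKM in WT IR and 13618 FPKM in Tet2-/- IR libraries, so the injury sums mainly follow that gene. The part of these cells in the levels of *Il1b*, *Il1r2* and *Il1rn* was not tested.

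The 3 members differed in how they lay along these lists. All 3 WT IR libraries lay above the 6 baseline libraries for *Il1rn*, as they did for the injury sum, but the order within the groups was not the same. WT IR replicate 1 had the lowest *Il1rn* and the lowest injury sum of its group, whereas *Il1rn* was highest in replicate 3 (0.868 FPKM) and the injury sum in replicate 2. Tet2-/- IR replicate 1 had the lowest *Il1rn* of its group (0.855 FPKM), and replicate 3 the lowest injury sum. *Il1b* in WT IR libraries lay within its WT baseline range, and *Il1r2* overlapped its own, while both were highest in the 3 Tet2-/- IR libraries. Within the Tet2-/- IR group, *Il1b* and *Il1rn* were highest in replicate 2, which also had the highest sums of its group for macrophage, injury, lymphocyte, endothelial, fibroblast and distal nephron markers. *Il1r2* had 3.42, 3.15 and 3.04 FPKM in replicates 1, 2 and 3. The neutrophil sums (134, 126 and 75.6 FPKM) and the mast cell and basophil sums (41.1, 18.6 and 16.4 FPKM) had the same order. Such an order of 3 libraries was not tested.

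**Figure D5:**
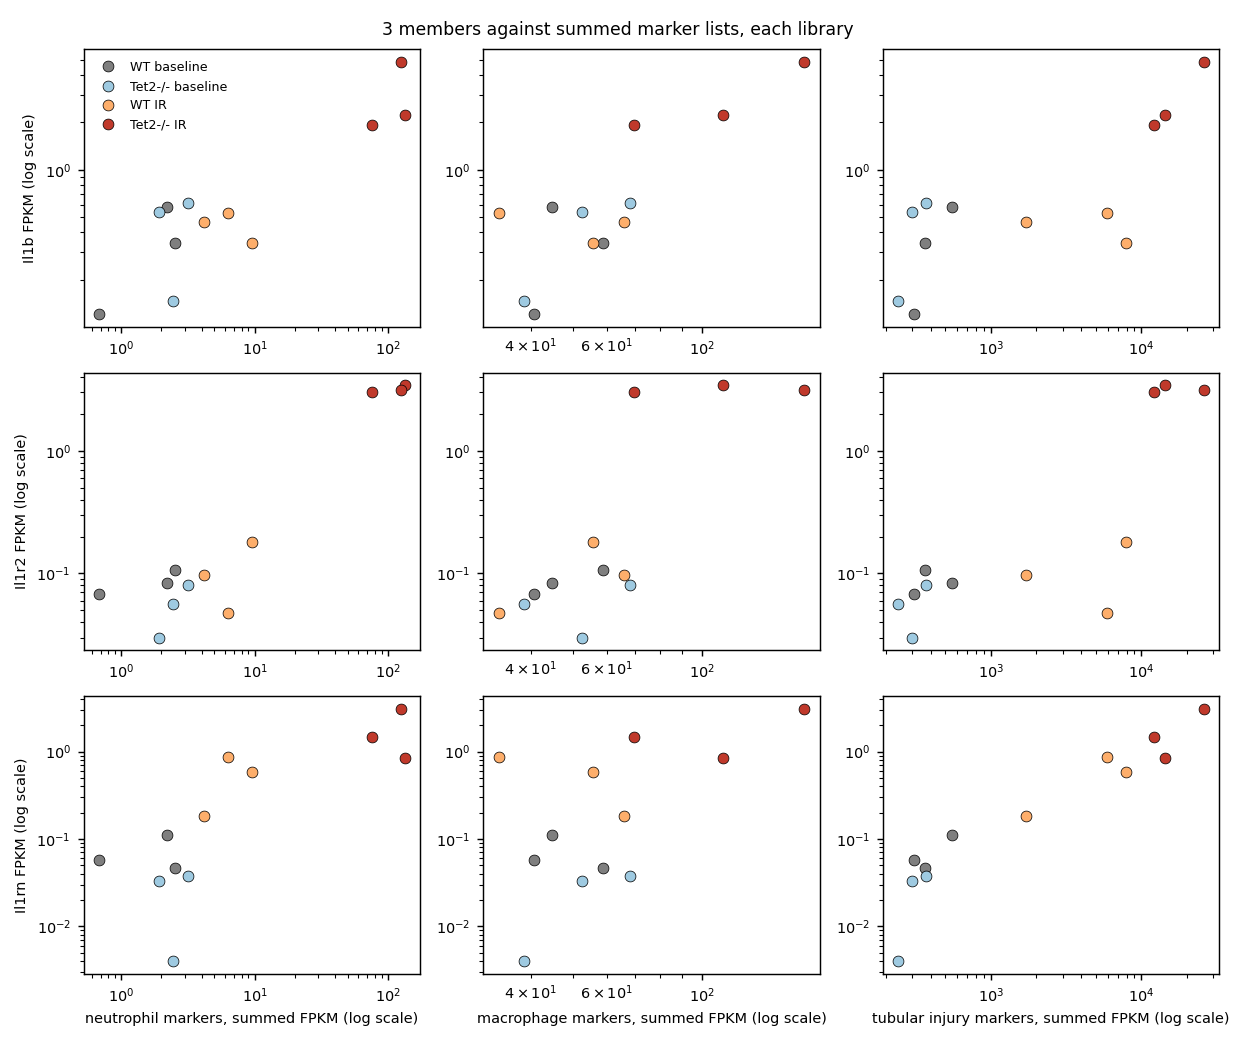
FPKM of *Il1b*, *Il1r2* and *Il1rn* (y axes, log scale) against the summed FPKM of neutrophil, macrophage and tubular injury markers (x axes, log scale), 1 point per library coloured by group. The 3 Tet2-/- IR libraries stand apart on the neutrophil axis, at 75.6 to 134 against at most 9.52 FPKM, and of the 3 genes only *Il1rn* has all WT IR points above all baseline points.

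The genes whose levels ran most like each member over the 12 libraries were sought among 16740 genes as a description, and the libraries share depth and group. For *Il1r2* they were *Sprr2e* (Pearson r = 0.987), *Nes* (0.983) and *Sprr2d* (0.982), where the *Sprr2* genes are near-identical copies whose reads may be split. *Sprr2e* and *Sprr2d* had means of 0 FPKM in both baseline groups. They had 0.006 and 0.0143 FPKM in WT IR and 0.287 and 0.794 FPKM in Tet2-/- IR libraries, so their r rests on that last group. *Nes* had 2.36 FPKM in WT IR and 10.1 FPKM in Tet2-/- IR libraries. For *Il1b* they were *Pde4b* (0.949), *Fpr1* (0.941), a receptor of myeloid cells for bacterial peptides, and B230307C23Rik (0.927). For *Il1rn* they were *S100a3* (0.977), *Sprr2g* (0.975) and *Akr1b8* (0.975), and *Akr1b8* had means of 2.63 FPKM in WT baseline and 10.2 FPKM in WT IR libraries. For *Il1r1* the nearest gene was *Grk5* (0.970), for *Il18* *Arglu1* (0.939), for *Il1rl1* *Runx2* (0.945), for *Il33* *Gpr153* (0.925), for *Il1rap* *Ppp2r3a* (0.927), for *Il1a* *Ror2* (0.950) and for *Il18bp* *Nat14* (0.874).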

How the data were processed

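The 12 libraries (total RNA of whole kidney, 3 mice per group) were aligned by the authors to mm9 with STAR and counted on RefSeq transcripts with HOMER. The deposited expected counts are not normalized, rise in steps of 0.5 (38.7% of values are not whole) and were rounded before testing, since whole counts had been assumed in the design. The deposited FPKM were used as levels. Totals of 51007366 to 107969888 counts set the precision, and low members rest on few reads. Of 34600 transcripts for 24421 symbols, the highest-total transcript per symbol was used (5569 symbols had several).

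Each comparison used its own groups in edgeR 4.0.16 (R 4.3.3): TMM, its filter on low counts, the quasi-likelihood test, with p-values adjusted by Benjamini-Hochberg across the genes tested. Calls needed an adjusted p below 0.05 together with a log2 fold change beyond 1 in either direction; for the interaction (all 12 libraries) the adjusted p sufficed. Tests were checked on simulated data. DESeq2 1.42.0, limma 3.58.1 on log2(FPKM + 1) and log2(FPKM + 0.1), other scalings, no filter, summed transcripts, a replicate block and left-out libraries were alternatives. Each transcript as its own feature was added after seeing the data. The main tests used no pairing, and replicate numbers entered only in the replicate block. Baseline and IR libraries of the same number were different mice. Their deviations correlated at 0.38, 0.363 and 0.358 in WT and 0.135, 0.359 and 0.222 in Tet2-/- kidneys, which does not establish pairs. The named genes are the 10 members, all their transcripts, *Tet2*, up to 4 called genes of each other list by adjusted p, and the 3 most alike genes per member by Pearson r of log2 CPM (prior count 2). Genes named beyond these were chosen after their values were seen. The members and the 14 other lists were chosen with earlier results of these data known. Sequences were read from NCBIM37, the genome of mm9, with transcripts matched to GENCODE vM1 within 500 bases at both ends. Protein sequences were not used here.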

Additional observations from a re-analysis of the deposited data

Results flagged for a closer look

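The difference between genotypes in the effect of IR on *Il1r2* was 5.25 on the log2 scale (SE 0.64, adjusted p = 0.00381 with edgeR's interaction test). From baseline to IR, *Il1r2* had 0.0863 ± 0.0196 and 0.109 ± 0.0678 FPKM in WT kidneys and 0.0553 ± 0.0250 and 3.20 ± 0.197 FPKM in the kidneys labelled Tet2-/- (SD, n = 3). It drew attention because the effect of the same operation differed between groups by the test of the difference itself, in all 3 Tet2-/- IR libraries. Its baseline values rest on 3 to 16 counts per library.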

How the results depend on the processing

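Of 853 alternative values for 49 fold changes of members, 829 kept their side of the threshold, 23 passed it anew, 1 fell back and 0 called values turned direction. Of 174 alternative counts of called members, 159 stayed within 1.5 times. In the comparison of genotypes after IR, leaving out 1 library gave 1 to 2 members called higher, with 1 (*Il1r2*) without WT IR replicate 1. For IR in WT kidneys, DESeq2, the replicate block and the fit of 12 libraries each gave 1 member higher instead of 0, and leaving out 1 library gave 0 to 1. For IR in Tet2-/- kidneys, library sizes alone, limma on log2(FPKM + 0.1), summed transcripts and the fit of 12 libraries each gave 5 members higher instead of 3, and leaving out 1 library gave 3 to 5, with 5 without Tet2-/- IR replicate 3. For the interaction, DESeq2 gave 4 members, limma on log2(FPKM + 1) and the replicate block gave 2 each instead of 1, and leaving out 1 library gave 1 to 2. The cause of these differences was not tested. The block changed no other call of a member. Between genotypes, deviations of same-numbered libraries correlated at −0.186, −0.167 and 0.0709 at baseline and 0.00257, 0.230 and 0.32 after IR. The block left the counts of members called there at 0 and 2. DESeq2 called 23 genes higher and 298 lower at baseline, against 2 and 0, and 770 and 872 after IR, against 373 and 623, and for IR in WT 488 and 490, against 234 and 142. The replicate block gave 428 and 559 genes for IR in WT, the fit of 12 libraries 373 and 258 there and 714 and 879 after IR, limma on log2(FPKM + 1) 226 and 369 after IR and 154 and 82 for IR in WT, and DESeq2 1210 and 1600 for the interaction, against 634 and 902. Leaving out 1 library gave 65 to 319 genes higher after IR, 41 to 365 for IR in WT and 147 to 980 for the interaction. Without WT baseline replicates 2 and 3, IR in WT kidneys gave 0 genes higher and 1 lower, but this sets 1 baseline library against 3, takes the spread from the IR group and assumes that the lone library varies like it, so it says nothing about stability. Depth limits *Il1rl1*, *Il1r2* and *Il1rn* most, since their baseline values rest on few counts.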
